A study of Mus musculus with 12 samples.

Results

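The ubiquitin ligases that break down muscle protein, the FoxO factors that switch them on and genes induced by glucocorticoids were examined in 4-week-old C57BL/6 mice, in liver and in quadriceps, after taurine had been given to their mothers in pregnancy. The 10 genes were Fbxo32, Trim63, Foxo1, Foxo3, Mstn, Klf15, Fkbp5, Tsc22d3, Ddit4 and Cebpd, chosen by name with earlier results of these data known. Each was followed through every probe set that the array annotation assigns to that gene alone. Of these 10 genes, 9 were measured, by 22 probe sets, among 18193 genes with such a probe set. Mstn, which encodes the muscle growth inhibitor myostatin, has no probe set under this symbol in the annotation used and was not analysed here. The dams of both groups received a diet of normal protein content (20% casein) with no detectable taurine. In the NP+tau group the drinking water of the dams held 1% taurine during gestation, and in the NP group it did not. Each group held 3 animals and gave 3 liver and 3 muscle samples, 12 in all. According to the study's methods, every pup had a different dam and both tissues were taken from the same pup. The values are log2 expression levels, normalized apart for each tissue, so that a level is compared only within a tissue and never between probe sets.

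Glucocorticoids act through a receptor that binds DNA and raises the transcription of genes such as Fkbp5, Tsc22d3, Klf15, Ddit4 and Cebpd. In skeletal muscle, fasting, stress and loss of insulin signalling move the FoxO factors into the nucleus, where they raise Fbxo32 (atrogin-1, also called MAFbx) and Trim63 (MuRF1). These ligases attach ubiquitin to muscle proteins, which the proteasome then degrades, and their transcripts are widely used as markers of muscle atrophy. In liver the same factors take part in the response to fasting, in which amino acids from muscle are turned into glucose.

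The start of Trim63 is shown here because it holds a motif of the glucocorticoid receptor beside one of the FoxO factors. The 250 bases before its start were read from RefSeq on GRCm38.p6 (chr4:134314870-134315119, plus strand), with a glucocorticoid receptor motif followed by a FoxO motif in capitals.
Trim63: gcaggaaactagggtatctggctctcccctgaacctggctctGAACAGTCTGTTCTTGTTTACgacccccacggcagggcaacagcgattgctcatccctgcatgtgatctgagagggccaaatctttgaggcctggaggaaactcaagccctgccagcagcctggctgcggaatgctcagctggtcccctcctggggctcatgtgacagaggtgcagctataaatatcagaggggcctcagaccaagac
The receptor motif searched was GNACA and TGTNC with 3 bases of any kind between them, and the FoxO motif was TTGTTTAC, on both strands of the 300 bases around each start. The first matched as GAACAGTCTGTTC, 208 to 196 bases before the start, and the second as TTGTTTAC, 195 to 188 bases before it, with no base between them and none shared. Of 32851 mouse promoters of this length, 0.475% held the receptor motif, 1.23% the FoxO motif and 2 promoters held both. Trim63 was the 1 promoter in which they adjoined. The table held 10 promoters of 8 of the genes, and none of the other 9 promoters held either motif. These matches describe letters in a window and say nothing of binding.

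The arrays were checked before the genes were compared. Markers of muscle fibres averaged 14.30 to 14.41 in NP+tau muscles and 14.29 to 14.41 in NP muscles. Markers of hepatocytes averaged 14.18 to 14.24 in NP+tau livers and 14.14 to 14.28 in NP livers. The liver of NP+tau replicate 1 stood apart, with a median distance of 0.450 from the median array on the log2 scale, against 0.0769 to 0.169 for the other 5 livers and 0.0746 to 0.188 for the 6 muscles. Markers of muscle fibres averaged 5.54 in that liver, 4.74 and 4.71 in the other NP+tau livers and 4.61 to 4.74 in NP livers. Only 7 of the 10 markers were kept, a gene being kept where its highest liver value reached 4.60. A marker could thus be kept through that liver alone, so its rank there is not counted and the average may be raised by the filter. Xist, which is transcribed from the inactive X chromosome, was at 11.08, 5.96 and 5.07 in NP+tau livers and at 11.75, 11.63 and 11.78 in NP livers. In muscle Xist was at 10.87, 5.56 and 5.12 in NP+tau samples and at 10.89, 10.85 and 11.13 in NP samples, so that the groups differed in the number of Xist-high animals although the methods describe both sexes in every group. The 4 sex markers, Xist with genes of the Y chromosome, averaged 5.53, 6.30 and 6.33 in NP+tau livers and 5.61 to 5.64 in NP livers. In muscle they averaged 5.41, 6.83 and 6.97 in NP+tau samples and 5.35 to 5.39 in NP samples. Every NP sample was Xist-high, so sex and diet cannot be fully told apart in any difference between the groups. The part of Xist was examined only in fits with Xist as a covariate or on Xist-high samples. In tissue samples such as these, fewer cells of a type and less RNA per cell cannot be told apart.

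No probe set of the 9 genes passed the test for a difference between the diets in either tissue. By limma with Benjamini-Hochberg adjustment, 0 of 15 probe sets passed an adjusted p of 0.05 in liver and 0 of 20 in muscle. Over all 29274 probe sets tested in each tissue the share called was 0%. At an unadjusted p under 0.05, limma gave 1 of the 15 in liver, against 4.69% of all probe sets, and 0 of the 20 in muscle, against 6.12%. The methods' t-test, also unadjusted, gave 1 in liver, against 3.78% of all probe sets, and 0 in muscle, against 6.34%. The study describes that test for newborn mice only. Its 4-week-old mice were compared by gene set enrichment and, for mitochondrial genes, by significance analysis of microarrays. The adjusted p of the genes' probe sets lay between 0.718 and 1.00 in liver and between 0.725 and 0.997 in muscle. The spread within a diet was wide for these genes. Their median standard error was 0.35 in liver, where that of all probe sets was 0.24, and 0.47 in muscle, where that of all probe sets was 0.19.

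In muscle the animals of a diet differed widely. Fbxo32, the F-box protein that selects substrates for its ubiquitin ligase complex, was at 8.77, 12.23 and 8.52 in NP+tau muscles and at 13.08, 10.23 and 7.68 in NP muscles by its brightest probe set. The highest and the lowest of these muscles, both NP, were 42.3-fold apart, and the NP+tau values lay inside the NP range. NP+tau minus NP was -0.49 with a standard error of 1.49, and its 95% interval reached from -4.02 to 3.04 (limma, adjusted p = 0.924). By its standard deviation within the diets, Fbxo32 lay at the 99.96 percentile of the 13829 genes measured in muscle.

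Both other probe sets of Fbxo32 showed a spread of the same order. One read 7.49, 10.67 and 6.78 in NP+tau muscles and 11.97, 8.45 and 6.16 in NP muscles, a range of 55.8-fold. The other read 8.71, 12.56 and 8.48 in NP+tau muscles and 10.68, 8.89 and 7.58 in NP muscles, a range of 31.6-fold. All 3 probe sets placed NP+tau replicate 2 and NP replicate 1 above the other 4 muscles and NP replicate 3 at the bottom. They did not give the same order at the top, since the last probe set put NP+tau replicate 2 first and the other 2 put NP replicate 1 first. Their differences between diets were -0.49, -0.55 and 0.87, so that even the sign depended on the probe set.

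**Figure D1:**
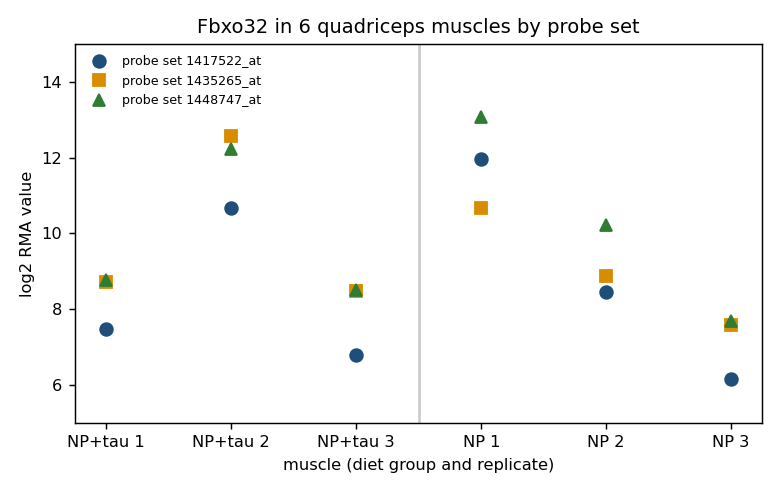
Log2 RMA value (vertical axis) of the 3 Fbxo32 probe sets in each of the 6 quadriceps muscles (horizontal axis, NP+tau left of NP), 1 symbol per probe set. NP+tau 2 and NP 1 sit highest and NP 3 lowest in all 3, and the range of the brightest is 42.3-fold.

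Trim63, a RING-finger ligase of the sarcomere, had 10.53, 11.35 and 10.25 in NP+tau muscles and 12.58, 10.72 and 10.23 in NP muscles. The order of the 6 muscles was that of Fbxo32, over a smaller range of 5.10-fold. NP+tau minus NP was -0.46 with a standard error of 0.61 (limma, adjusted p = 0.808), within the spread of the animals.

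The FoxO factors, the transcription factors upstream of both ligases, varied less. Foxo1 was at 8.15, 8.62 and 9.25 in NP+tau muscles and at 10.03, 8.53 and 8.34 in NP muscles, a difference of -0.29 with a standard error of 0.49. Foxo3 was at 8.29, 8.88 and 8.75 in NP+tau muscles and at 9.76, 8.58 and 8.51 in NP muscles, a difference of -0.31 with a standard error of 0.36. For each factor NP replicate 1 was the highest muscle and NP+tau replicate 1 the lowest, and the other NP muscles lay among the NP+tau ones. The other Foxo1 probe sets tested gave differences of -0.20 to -0.06, and the second Foxo3 probe set gave -0.37, none of which passed the test.

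Fkbp5 encodes a cochaperone that lowers the affinity of the glucocorticoid receptor for its hormone, and its transcript is among the most responsive to glucocorticoids. It read 6.84, 9.48 and 8.20 in NP+tau muscles and 10.99, 7.76 and 8.46 in NP muscles, a range of 17.8-fold. The second probe set tested had 6.03, 8.11 and 6.78 in NP+tau muscles and 9.63, 6.89 and 7.21 in NP muscles. Both placed NP replicate 1 first, NP+tau replicate 2 next, then NP replicate 3, and NP+tau replicate 1 last. Their differences were -0.90 with a standard error of 0.95 and -0.94 with a standard error of 0.81, the first with a 95% interval from -3.14 to 1.34.

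Tsc22d3 encodes GILZ, a leucine zipper protein through which glucocorticoids restrain inflammation. It followed another order than the rest, at 10.56, 9.37 and 11.11 in NP+tau muscles and 10.54, 10.08 and 10.40 in NP muscles. NP+tau replicate 2, second highest for Fbxo32, Trim63, Foxo3 and Fkbp5, was the lowest muscle here, and NP+tau replicate 3 was the highest. The difference was 0.00 with a standard error of 0.42. The other 3 probe sets of Tsc22d3 gave -0.21 to -0.02, and they include one whose probes may also bind other transcripts.

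Klf15, a zinc-finger factor that raises amino acid breakdown in muscle, was even among NP+tau muscles, at 8.74, 8.67 and 8.88. NP muscles had 10.28, 9.17 and 8.32, on both sides of the NP+tau values. The difference was -0.49 with a standard error of 0.45 (limma, adjusted p = 0.741). Ddit4 (REDD1), which inhibits mTORC1 under stress and glucocorticoids, had 8.73, 9.21 and 10.12 in NP+tau muscles and 10.23, 8.62 and 8.40 in NP muscles. It was 1 of 2 genes with a mean above that of NP in muscle, by 0.27 with a standard error of 0.55. Cebpd, a C/EBP transcription factor induced by inflammation and glucocorticoids, read 9.56, 8.77 and 10.02 in NP+tau muscles and 11.55, 9.72 and 8.75 in NP muscles. Its difference was -0.56 with a standard error of 0.69, and the NP+tau values again lay inside the NP range. A second Cebpd probe set, near the limit of 4.49, differed by -0.18 with a standard error of 0.15.

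**Figure D2:**
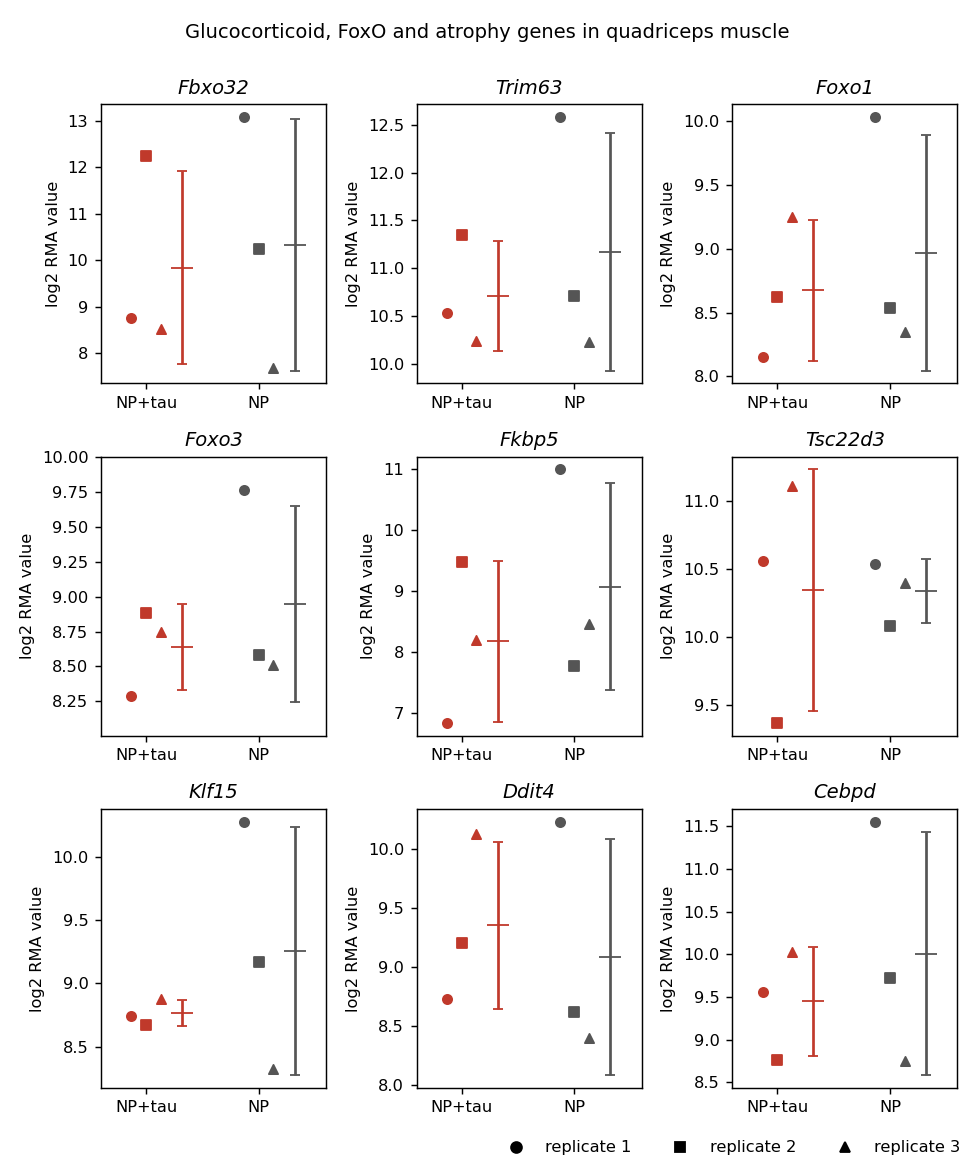
Log2 RMA value (vertical axis, own scale in each panel) of the brightest probe set of 9 genes in quadriceps muscle, NP+tau in red left of NP in grey, with a symbol for each replicate and mean ± SD (n = 3) beside the points. NP replicate 1 is the highest of 6 muscles in 8 panels, all but Tsc22d3.

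A single muscle was high for most of these genes. Of the 20 probe sets in muscle, the diets did not overlap for 0 with NP+tau higher and 0 with NP+tau lower, against 7.33% and 7.77% of all probe sets. NP replicate 1 was the highest of the 6 muscles for 8 of the 9 genes by their brightest probe sets, all but Tsc22d3. Over all 13829 genes the same muscle was highest in 19.5% and lowest in 25.3%. NP replicate 3 was the lowest muscle for 5 of the 9 genes, namely Fbxo32, Trim63, Klf15, Ddit4 and Cebpd, against 7.37% of all genes. Averaged over the 9 genes, the levels were 8.91 to 9.62 in NP+tau muscles and 8.79 to 11.00 in NP muscles.

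With all 6 muscles, 2 of the 9 differences lay above 0 and 7 below, with a median of -0.46. NP replicate 1 was the highest muscle for 8 of these genes, so that leaving it out could only raise their differences. Without NP replicate 1, all 9 lay above 0, between 0.02 and 0.88, with a median of 0.21. Fbxo32 then stood at 0.88, Ddit4 at 0.84, Trim63 and Foxo1 at 0.24, Cebpd at 0.21 and Fkbp5 at 0.06. None of these passed the test (limma, lowest adjusted p = 0.914). Removing NP replicate 1 turned the sign of 7 genes and left that of Ddit4 and Tsc22d3. Other muscles turned single signs, as Fbxo32 stood at 0.044 without NP+tau replicate 1 and at 0.17 without NP+tau replicate 3, and Ddit4 at -0.073 without NP replicate 3 and at -0.12 without NP+tau replicate 3. Tsc22d3, at 0.00 with all muscles, lay below 0 without NP replicate 2, NP+tau replicate 1 or NP+tau replicate 3.

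**Figure D3:**
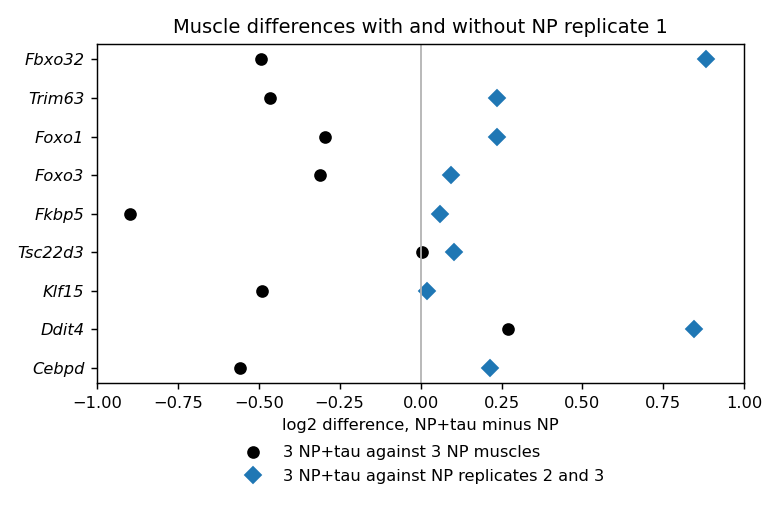
Log2 difference, NP+tau minus NP (horizontal axis), for 9 genes in muscle (vertical axis), with all 6 muscles (circles) and without NP replicate 1 (diamonds). With all muscles 7 of 9 lie below 0, and without NP replicate 1 all 9 lie above 0.

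The other cell types in the tissue did not follow the diets in one way. Markers of fibroblasts averaged 11.4 to 11.9 in NP+tau muscles and 10.6 to 12.3 in NP muscles. NP replicate 1 had the lowest value for 5 of 7 of them, against 25.3% of all muscle genes. Neutrophil markers averaged 7.20 to 8.51 in NP+tau muscles and 5.84 to 10.1 in NP muscles. NP replicate 1 was highest for 0 of 8, against 19.5% of all muscle genes. Endothelial markers averaged 8.20 to 8.42 in NP+tau muscles and 7.85 to 8.05 in NP muscles. For 3 of 8 the groups did not overlap, all with NP+tau higher, against 8.44% of all muscle genes. Hepatocyte markers averaged 5.39 to 5.89 in NP+tau muscles and 5.62 to 6.38 in NP muscles. Of the macrophage markers 8 of 9 differences lay below 0 and 1 above. Groups did not overlap for 3 of these 9, with NP+tau lower, against 7.25% of all muscle genes. Differences also lay below 0 for 5 of 6 adipocyte markers and 5 of 5 Schwann cell markers. Whether these had a part in the levels of the 9 genes was not tested.

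Genes of the surrounding pathways were measured in the same muscles. None of the genes on 9 pathway lists passed the test. The groups did not overlap for 8.44% of all muscle genes with NP+tau higher and for 7.25% with NP+tau lower. Among the glucocorticoid receptor and its chaperones, 3 of 9 genes did not overlap with NP+tau higher and 1 with NP+tau lower. Nr3c1, the receptor itself, was at 9.91, 9.48 and 9.76 in NP+tau muscles and at 9.70, 9.71 and 9.83 in NP muscles, a difference of -0.03 with a standard error of 0.16. The 3 higher in NP+tau were the chaperones Dnajb1, Stip1 and Hspa8, with differences of 0.80, 0.46 and 0.66. Hsd11b1, the enzyme that regenerates active glucocorticoid inside cells, had 7.09, 6.97 and 7.35 in NP+tau muscles and 7.69, 7.71 and 7.55 in NP muscles, a difference of -0.51 with a standard error of 0.15 (limma, adjusted p = 0.707).

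Other glucocorticoid-induced genes had 5 of 18 differences above 0 and 13 below, with a median of -0.17, where the median of all genes was 0.03. NP replicate 1 was the highest muscle for 7 of the 18 and NP+tau replicate 2 for 5. Only Tat, a liver enzyme of tyrosine breakdown near the lower limit of detection here, did not overlap between the diets, and it was lower in NP+tau by 0.22. For the other FoxO factors and targets, 7 of 18 differences lay above 0 and 11 below. NP+tau replicate 2 was the highest muscle for 9 of these 18 and NP replicate 1 for 5, against 23.4% and 19.5% of all genes. Groups overlapped for all 18.

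Of the other ubiquitin ligases of muscle, 14 were tested, and the diets did not overlap for 1 with NP+tau higher and 1 with NP+tau lower. Asb15, a muscle ligase subunit of the ankyrin repeat and SOCS box family, was at 8.25, 8.40 and 8.38 in NP+tau muscles and at 6.17, 7.30 and 7.15 in NP muscles. Its difference of 1.47 with a standard error of 0.30 did not pass after adjustment (limma, adjusted p = 0.707). Fbxo9, another F-box protein, had 9.91, 9.78 and 9.77 in NP+tau muscles and 10.25, 10.51 and 10.41 in NP muscles, a difference of -0.57. Over the 14 ligases, 7 differences lay above 0 and 7 below.

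In the pathway of myostatin and activin, 14 of 20 differences lay below 0, and 5 genes did not overlap with NP+tau lower and 1 with NP+tau higher. The last was Smad2, a signal transducer of activin and myostatin receptors, with a difference of 0.19. Follistatin (Fst), the secreted inhibitor of myostatin, was at 6.18, 6.45 and 6.13 in NP+tau muscles and at 6.86, 6.72 and 6.55 in NP muscles, a difference of -0.46 with a standard error of 0.16. The corepressor Ski differed by -0.24, the activin subunit Inhbb by -0.22 and the myostatin relative Gdf11 by -0.18, all with adjusted p of 0.708 to 0.717 by limma. Of 20 genes of mTORC1 and its inhibitors, 1 did not overlap, Prkaa1, a catalytic subunit of the energy sensor AMPK. It was at 5.10, 6.03 and 5.56 in NP+tau muscles against 4.78, 4.66 and 4.88 in NP muscles, near the limit of 4.49. Among genes of amino acid breakdown and relatives of Klf15, Klf2, a factor best known from endothelium, had 9.05, 9.12 and 9.33 in NP+tau muscles and 8.42, 8.59 and 8.57 in NP muscles, a difference of 0.64. The glucose transporter Slc2a4 differed by -0.36 and the dehydrogenase subunit Dld by 0.16. In the C/EBP family and IL-6 signalling, 6 of 9 differences lay above 0 with a median of 0.14, and the receptor subunit Il6st did not overlap, at 9.77, 9.87 and 9.73 in NP+tau muscles against 9.70, 9.55 and 9.58 in NP muscles, a difference of 0.18.

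Genes that respond to loss of the nerve supply, a setting in which Fbxo32 and Trim63 are also known to rise, included the smallest unadjusted p of the pathway lists in muscle. Myog, the myogenic factor that drives both ligases after denervation, was at 8.10, 7.84 and 7.58 in NP+tau muscles and at 6.20, 6.39 and 6.35 in NP muscles. The difference was 1.53 with a standard error of 0.17 and did not pass after adjustment (limma, adjusted p = 0.458). Sln, a small inhibitor of the calcium pump, had 9.24, 7.42 and 7.49 in NP+tau muscles and 11.99, 10.41 and 9.87 in NP muscles, a difference of -2.71. Hdac4, a deacetylase of the same response, differed by 0.41, and Myh8, the perinatal myosin, by -0.50. The list went both ways, with 6 of 15 differences above 0 and 9 below.

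In liver 7 of the 9 genes were above the limit of 4.60 by at least 1 probe set. Fbxo32 and Trim63 were not: the 3 probe sets of Fbxo32 read 3.63 to 4.56 in NP+tau livers and 3.75 to 4.55 in NP livers, and that of Trim63 read 3.64 to 3.98 in NP+tau livers and 3.47 to 3.64 in NP livers. They were not tested there. Of the 15 probe sets tested, 7 differences lay above 0 and 8 below, with a median of -0.00, where the median of all probe sets was -0.04.

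Fkbp5 had the smallest unadjusted p of the brightest liver probe sets. It was at 7.61, 8.14 and 8.93 in NP+tau livers and at 9.34, 9.05 and 8.77 in NP livers, so that the groups overlapped through NP+tau replicate 3. NP livers averaged 1.77-fold the level of NP+tau livers, a difference of -0.83 with a standard error of 0.35 and a 95% interval from -1.66 to 0.00. Neither limma (adjusted p = 0.718) nor a two-sided exact permutation test (p = 0.2) passed, and the smallest p such a test can give with these samples is 0.1. The second probe set with a clear level read 6.49, 7.54 and 8.02 in NP+tau livers and 8.15, 8.24 and 7.96 in NP livers, a difference of -0.77. A further one read 4.93 in NP+tau replicate 1 and 3.47 to 3.61 in the other livers, under the limit of 4.60, so that it was kept through that liver alone. This probe set differed by 0.36 and is part of the mean of the 3 probe sets given next. The brightest probe set differed by -0.52 without NP+tau replicate 1, the array that stood apart, by -0.37 without replicate 1 of both groups and by -0.45 with array weights, and the mean of the 3 probe sets by -0.41.

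Ddit4 had the widest range of the liver genes, 11.4-fold, with 5.45, 7.24 and 7.92 in NP+tau livers and 8.60, 8.96 and 7.02 in NP livers. The difference was -1.32 with a standard error of 0.73 and did not exceed the spread (limma, adjusted p = 0.718). Cebpd read 5.20, 6.57 and 7.20 in NP+tau livers and 8.0, 7.17 and 6.38 in NP livers, a difference of -0.86 with a standard error of 0.59. In both genes NP+tau replicate 1 was the lowest liver and the other samples overlapped. Without it Ddit4 differed by -0.61 and Cebpd by -0.30.

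Tsc22d3 varied widely within each diet, at 7.51, 9.38 and 10.10 in NP+tau livers and 8.18, 8.42 and 9.72 in NP livers. A second probe set followed it, with 6.77, 8.87 and 9.51 in NP+tau livers and 7.31, 7.89 and 8.97 in NP livers. Their differences were 0.22 with a standard error of 0.70 and 0.32 with a standard error of 0.74. Another probe set, whose probes may also bind other transcripts, read 6.75, 6.46 and 6.44 in NP+tau livers and 5.90, 5.95 and 6.34 in NP livers. Of the probe sets tested, it was the only one of the 9 genes in either tissue whose groups did not overlap, against 5.73% of all liver probe sets with NP+tau higher, and 0 of the 15 were the other way round, against 9.11%. Its difference was 0.49 with a standard error of 0.20 (limma, adjusted p = 0.718), and it put NP+tau replicate 1 highest where the brighter 2 put that liver lowest.

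Foxo1, Foxo3 and Klf15 varied less among the livers by their brightest probe sets. Foxo1 was at 8.43, 8.46 and 9.14 in NP+tau livers and at 8.80, 8.46 and 8.77 in NP livers, a difference of -0.00 with a 95% interval from -0.58 to 0.58. Another Foxo1 probe set varied more, over 2.98-fold, with 7.03, 7.95 and 8.60 in NP+tau livers and 8.12, 7.66 and 8.17 in NP livers, a difference of -0.12 with a 95% interval from -1.06 to 0.82. The other 2 tested for Foxo1 differed by 0.01 and 0.18, so that the 4 lay on both sides of 0. Foxo3 read 7.68, 7.55 and 7.90 in NP+tau livers and 8.16, 7.77 and 7.94 in NP livers, a difference of -0.24 with a 95% interval from -0.69 to 0.21, and its second probe set differed by -0.15. Klf15, which also controls gluconeogenesis from amino acids, read 10.04, 9.98 and 10.58 in NP+tau livers and 9.92, 10.10 and 9.98 in NP livers, a difference of 0.20 with a 95% interval from -0.30 to 0.70. By the standard deviation of the brightest probe set within diets these genes lay at the 49.2, 22.0 and 33.9 percentiles of 14276 liver genes, where Ddit4, Tsc22d3 and Cebpd lay at 99.1, 98.8 and 97.3.

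**Figure D4:**
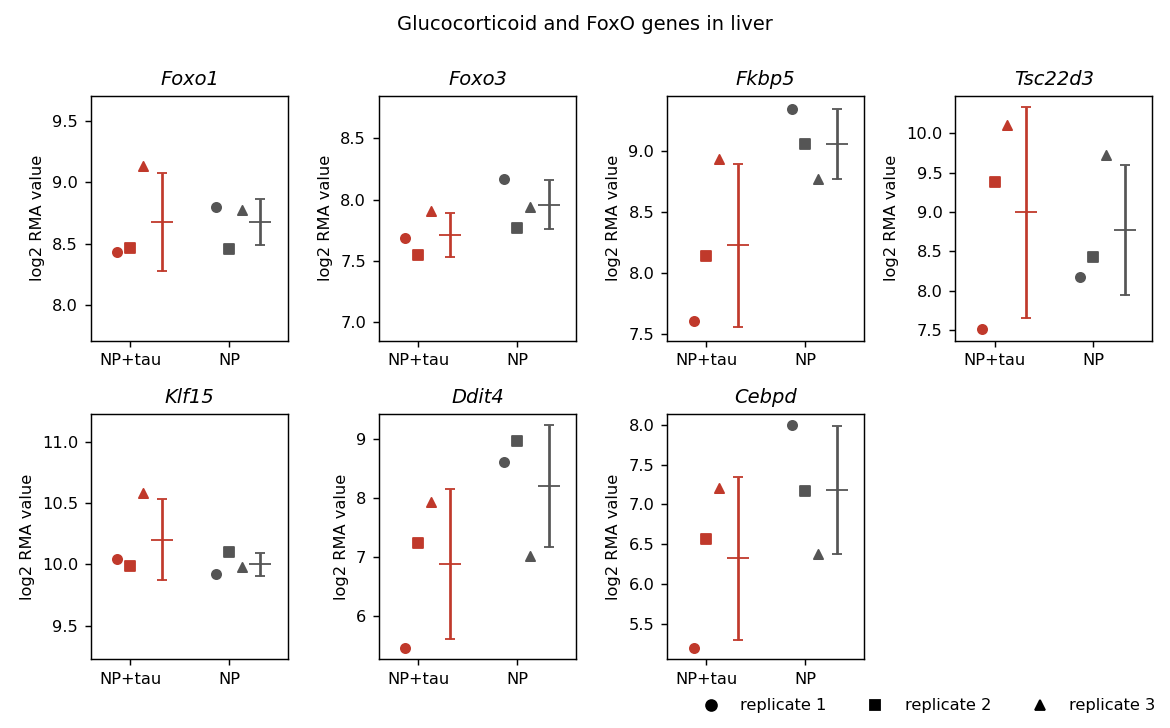
Log2 RMA value (vertical axis, own scale in each panel) of the brightest probe set of 7 genes in liver, NP+tau in red left of NP in grey, with a symbol for each replicate and mean ± SD (n = 3) beside the points. NP+tau replicate 1 is the lowest liver in 5 panels, Foxo1, Fkbp5, Tsc22d3, Ddit4 and Cebpd.

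NP+tau replicate 1 was the lowest liver for 5 of the 7 genes, against 41.1% of all liver genes, and NP+tau replicate 3 the highest for 3, against 9.36%. Several other lists differed between the livers in the direction of Fkbp5, Ddit4 and Cebpd. Of all liver genes, 9.19% did not overlap with NP+tau lower. Neutrophil markers averaged 5.07 to 5.56 in NP+tau livers and 6.41 to 9.19 in NP livers, with 5 of 8 not overlapping. Macrophage markers averaged 7.57 to 8.55 in NP+tau livers and 8.98 to 9.78 in NP livers, with 6 of 10 not overlapping. Fibroblast markers averaged 7.80 to 8.30 in NP+tau livers and 8.73 to 9.74 in NP livers, with 5 of 7 not overlapping. Immediate early genes, which respond within minutes to handling and injury, averaged 6.33 to 6.54 in NP+tau livers and 7.22 to 8.20 in NP livers. None of the genes on these lists passed the test, and their part in the levels of Fkbp5, Ddit4 and Cebpd was not tested. Nor was that of the higher average of muscle-fibre markers in NP+tau replicate 1, the lowest liver for all 3 genes.

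Among the pathway lists in liver 0 genes passed. Groups did not overlap for 6% of all liver genes with NP+tau higher and for 9.19% with NP+tau lower. In the C/EBP family and IL-6 signalling, a pathway that induces Cebpd, 4 of 9 genes did not overlap and all were lower in NP+tau. Stat3, the transcription factor of IL-6 signalling, was at 9.59, 9.35 and 9.62 in NP+tau livers and at 10.46, 10.16 and 10.29 in NP livers, a difference of -0.78 with a standard error of 0.18 (limma, adjusted p = 0.718). Its feedback inhibitor Socs3 differed by -1.09, the receptor subunit Il6st by -0.67 and the kinase Jak2 by -0.69.

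Of 18 other glucocorticoid-induced genes, 12 differences lay below 0 in liver, with a median of -0.49. Mt1, a metallothionein, read 11.86, 12.42 and 12.27 in NP+tau livers and 13.59, 13.25 and 12.89 in NP livers, a difference of -1.06 with a standard error of 0.25. Lcn2, an acute-phase protein also made by neutrophils, read 5.98, 5.75 and 5.69 in NP+tau livers and 11.53, 6.32 and 7.36 in NP livers. The stress gene Gadd45a differed by -0.66. Angptl4, a secreted inhibitor of lipoprotein lipase, went the other way at 9.97, 9.98 and 10.69 in NP+tau livers and 9.67, 9.77 and 9.05 in NP livers. The receptor Nr3c1 differed by -0.10 with a standard error of 0.22. Its chaperone Hsp90aa1 differed by 0.72 and its coactivator Ncoa2 by -0.58.

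For the other FoxO factors and targets, 17 of 20 differences lay below 0 in liver, with a median of -0.39, where the median of all genes was -0.03. Sesn1, a stress-induced inhibitor of mTORC1, was at 6.24, 6.37 and 7.05 in NP+tau livers and at 7.59, 7.32 and 7.26 in NP livers, a difference of -0.83 with a standard error of 0.25. The lysosomal protease Ctsl differed by -0.71, the mitophagy receptor Bnip3 by -0.39 and the cell cycle inhibitor Cdkn1b by -0.42. NP+tau replicate 1 was the lowest liver for 10 of the 20, against 41.1% of all liver genes. In the mTORC1 list the GTPases Rragd and Rragc, which signal amino acid supply, differed by -1.67 and -0.50. The ubiquitin ligases Cblb, Nedd4 and Stub1 differed by -1.02, -0.45 and -0.49. Of the enzymes that feed amino acids to gluconeogenesis, the aminotransferases Got1 and Gpt2 differed by -0.77 and -0.75, and the zinc-finger factor Klf6 by -1.20. Prodh, the first enzyme of proline breakdown, had the smallest unadjusted p of that list and went the other way, at 10.62, 10.32 and 9.67 in NP+tau livers and 7.49, 8.01 and 9.67 in NP livers, a difference of 1.81 with a standard error of 0.56 in groups that just overlapped. The decoy receptor Bambi differed by -0.79 and the follistatin relative Fstl3 by 0.47. Of 11 denervation genes above the limit of 4.60 in liver, 2 did not overlap with NP+tau higher and 1 with NP+tau lower. The 2 were Musk, a kinase of the nerve-muscle synapse, and Hdac4, by 0.23 and 0.21. The 11 averaged 4.86 to 5.38 in NP+tau livers and 4.87 to 4.93 in NP livers, near that limit. The 5.38 was that of NP+tau replicate 1. Of 15 genes listed, these 11 were kept by their highest liver value, which that liver alone could supply, so its rank is not counted. Apart from Prodh, each gene named from the FoxO, mTORC1, ligase, amino acid, activin and denervation lists had groups that did not overlap. All of these, Prodh included, had an adjusted p of 0.718 by limma.

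Liver and muscle were then compared for the size of the difference between diets, as an interaction in limma over 25622 probe sets tested in both. None was called (0%), and at an unadjusted p under 0.05 limma gave 7.8% of all probe sets. Of the 14 probe sets of the genes in this test, 0 passed, with a lowest adjusted p of 0.542. The fit took the 12 samples as separate, although both tissues came from the same pups. With the tissues matched by replicate number 0 probe sets were called too, but the labels do not say that equal numbers mark the same animal. Ddit4 had the widest gap, at 0.27 in muscle and -1.32 in liver, a contrast of 1.59 with a 95% interval from -0.60 to 3.78. Fkbp5 differed by -0.90 in muscle and -0.83 in liver, a contrast of -0.07 with a 95% interval from -2.49 to 2.35, which leaves room for large contrasts in either direction.

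**Figure D5:**
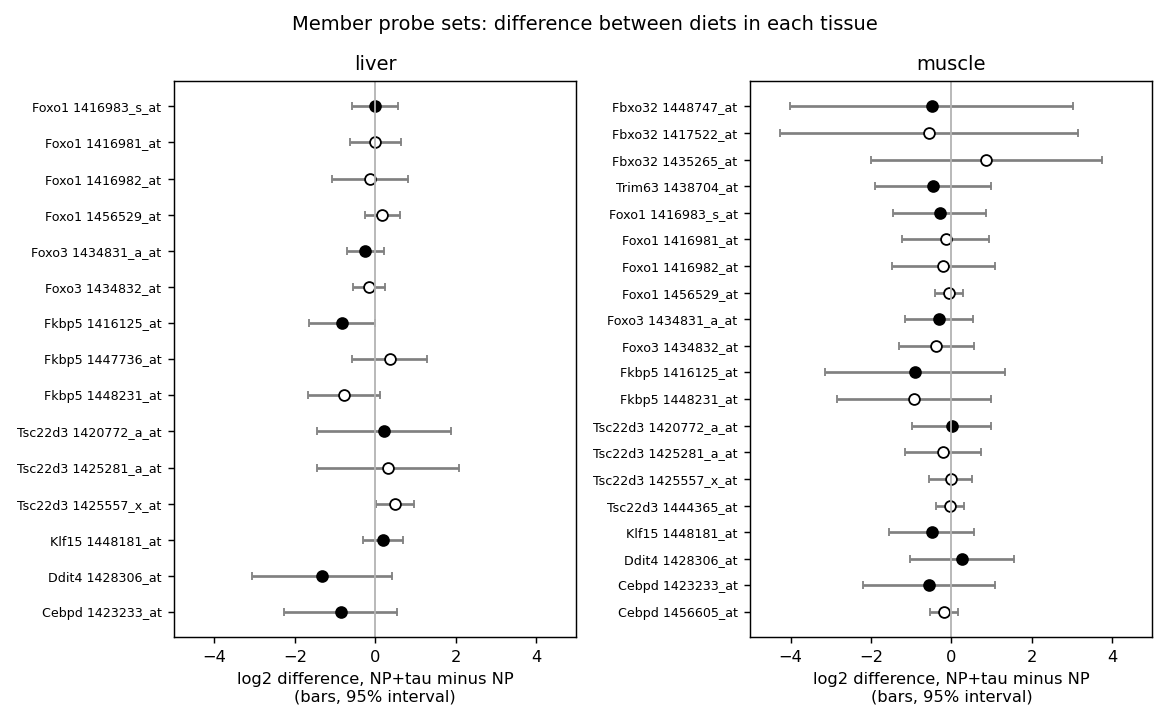
Log2 difference, NP+tau minus NP, and its 95% interval (horizontal axis) for the 15 liver and 20 muscle probe sets tested (vertical axis), filled circles being the brightest probe set of each gene. Intervals are widest for Fbxo32 in muscle, and the liver Tsc22d3 probe set at 0.49 is the only one whose interval leaves out 0.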

How the data were processed

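RNA from liver and quadriceps muscle was hybridized to Affymetrix mouse expression arrays, 6 per tissue. The deposited values are log2 expression levels that the authors obtained from the scans by RMA with quantile normalization (justRMA), each tissue apart. Depth has no counterpart on arrays, and the number of arrays limits the precision. Of 45101 probe sets, 64 controls were left out, and probe sets whose highest value in a tissue lay under the 35th percentile of such values were left out there (4.60 in liver, 4.49 in muscle). The series' probe annotation gave 1 symbol to 34958 probe sets, several to 932 and none to 9211, and only the first were named. The diets were compared within a tissue by a linear model with moderated variances (limma 3.58.1, lmFit and eBayes, under R 4.3.3), without covariates, with Benjamini-Hochberg adjustment over all probe sets kept and a threshold of 0.05. The script was tested on simulated data. Percentages of genes refer to the brightest probe set of each gene. Exact permutation tests were two-sided.

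The genes and the lists were chosen with earlier results of these data known. All measured genes of the set are named, and of each other list up to 4 genes with the smallest unadjusted p whose groups did not overlap. Nr3c1 in both tissues, Prodh in liver and Smad2, Mt1, Mt2, Sesn1 and Glul in muscle were named besides these, after their values had been seen. Replicates are separate animals per the methods. Promoters came from a RefSeq table. The alternatives were no filter, a stricter filter (50th percentile), an intensity trend, array weights, arrays centred on their median, the mean of a gene's probe sets, Xist as a covariate, Xist-high samples only, the replicate number as a block, muscle minus liver within a replicate number, a t-test, and samples left out. Other software was data.table (version 1.17.8) and matplotlib (version 3.10.9).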

Additional observations from a re-analysis of the deposited data

How the results depend on the processing

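With 6 arrays per tissue, differences well above 1 on the log2 scale remained inside the intervals of Fbxo32 and Fkbp5 in muscle and of Ddit4 in liver. Over all liver probe sets, array weights called 8 instead of 0 and leaving out replicate 1 of both groups called 9. Xist as a covariate called 9449 liver probe sets, 6 of them of the genes examined and 37 pathway genes, and Xist-high samples only called 7562, 3 and 30. In effect these last 2 fits set the liver of NP+tau replicate 1, the array that stood apart, against the NP livers. In them Fkbp5 differed by -1.61 (limma, adjusted p = 0.0219) and -1.45 (limma, adjusted p = 0.0289), and with the covariate Ddit4 by -3.04 (limma, adjusted p = 0.0328) and Cebpd by -2.22 (limma, adjusted p = 0.0442).

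The unadjusted t-test gave 1108 liver probe sets, 1 of them of the genes examined, and 6 pathway genes, and 1857 muscle probe sets and 14 pathway genes. In liver Foxo1 changed sign to 0.19 with array weights, 0.11 with centring, 0.18 without replicate 1 of both groups and 0.015 as the mean of its probe sets. Klf15 changed to -0.037 with Xist as a covariate, Tsc22d3 to -1.53 with it and -1.26 in Xist-high samples, and Cebpd to 0.11 without replicate 1 of both groups. In muscle Tsc22d3 changed to -0.052 with centring and -0.066 as a mean of probe sets, and Ddit4 to -0.43 with the Xist covariate and -0.35 in Xist-high samples. In muscle too, the fits with the Xist covariate and in Xist-high samples in effect set NP+tau replicate 1 against the NP samples. The cause of the other changes was not tested.

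Leaving out 1 sample at a time called 0 to 9 liver and 0 to 8 muscle probe sets and 0 to 2 between tissues, and 0 to 0 of the genes examined or of the pathway genes. The 9 came without NP+tau replicate 1 in liver, where leaving out NP replicate 3 called 1, the 8 without NP+tau replicate 1 in muscle and the 2 without NP replicate 3 in liver. The differences then ranged in liver from -1.30 to -0.30 for Cebpd, -1.91 to -0.61 for Ddit4, -1.18 to -0.52 for Fkbp5, -0.23 to 0.12 for Foxo1, -0.34 to -0.14 for Foxo3, 0.01 to 0.31 for Klf15 and -0.33 to 0.97 for Tsc22d3. In muscle they ranged from -1.19 to 0.21 for Cebpd, -0.12 to 0.84 for Ddit4, -1.82 to 0.88 for Fbxo32, -1.55 to 0.061 for Fkbp5, -0.61 to 0.24 for Foxo1, -0.53 to 0.094 for Foxo3, -0.96 to 0.021 for Klf15, -0.94 to 0.24 for Trim63 and -0.38 to 0.49 for Tsc22d3. Of 96 such values of single genes, 76 kept their sign and side of the threshold.

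The replicate block changed no call, with 0 probe sets called in either tissue. Deviations of same-numbered samples of the 2 diets correlated at 0.02, -0.11 and 0.11 in liver and at -0.21, -0.27 and 0.33 in muscle. Differently numbered samples reached 0.13 in liver and 0.40 in muscle, so the numbers were not taken as pairs.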

Other observations

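The metallothioneins, named after their values were seen, were high in the same 2 muscles as Fbxo32. Mt1, which binds zinc and is induced by glucocorticoids, was at 8.74, 13.09 and 9.24 in NP+tau muscles and at 12.18, 9.31 and 9.62 in NP muscles. Mt2 was at 8.17, 12.86 and 8.63 in NP+tau muscles and at 11.39, 8.79 and 8.87 in NP muscles. NP+tau replicate 2 and NP replicate 1 were the high muscles for both, the lowest was NP+tau replicate 1 and not NP replicate 3 as for Fbxo32, and the differences between diets were -0.01 and 0.20. Sesn1, a FoxO target, was at 9.28, 8.89 and 9.39 in NP+tau muscles and at 11.90, 9.75 and 8.81 in NP muscles, and glutamine synthetase (Glul) at 10.11, 11.43 and 10.83 in NP+tau muscles, against 12.55, 10.51 and 10.54 in NP muscles. In both of these, also named after their values were seen, NP replicate 1 was the highest muscle. Over the lists it was highest for 5 of 18 other FoxO factors and targets and 7 of 18 other glucocorticoid-induced genes. Its share of all muscle genes was 19.5%, and NP+tau replicate 2 was highest for 9 and 5 of these lists.

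Immediate early genes did not go one way in muscle. Egr1 was at 7.96, 8.02 and 8.28 in NP+tau muscles and at 9.61, 9.72 and 9.76 in NP muscles, a difference of -1.61 with a standard error of 0.15 (limma, adjusted p = 0.342). Atf3 was at 7.40, 9.04 and 8.31 in NP+tau muscles and at 6.32, 5.97 and 7.28 in NP muscles, a difference of 1.73. Clock genes averaged 7.88 to 7.93 in NP+tau muscles and 7.48 to 7.68 in NP muscles, with 10 of 12 differences above 0, and in liver 6.97 to 7.35 in NP+tau and 6.87 to 7.30 in NP. None of these genes passed the test.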
